A study of Mus musculus with 111 samples.

Results

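Gene expression in the lungs of mice was compared 28 days after a single bleomycin challenge. The comparison rests on 16 of the arrays in the series, which holds 56 of bleomycin mice and 55 of saline mice, namely every array that its title places in the bleomycin group (8 mice) or in the saline group (8 mice) of day 28, and it covers all 15707 genes with a probeset of their own. Bleomycin mice were male C57BL6/J animals, bought at 7 to 9 weeks of age, whose airways were sprayed once through the trachea with 2 U/kg bleomycin in a volume of 50 µl. Saline mice were of the same strain, sex and age and received saline by the same route, and no engineered allele is named for either group. Each array held RNA of the left and right lungs of 1 mouse, homogenised together, so the 8 values of a group come from separate animals. In such whole-lung RNA, fewer cells of a type and less RNA per cell cannot be told apart.

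Bleomycin is an anticancer drug that binds iron and breaks DNA strands, and the lung is one of the organs it harms most because lung cells hold little of the hydrolase that inactivates it. In the mouse, death of epithelial and endothelial cells is followed by inflammation, by a wave of fibroblasts that deposit collagen and other matrix proteins, and later by partial clearance of that matrix. Damaged DNA stabilises the transcription factor p53, which switches on genes that halt the cell cycle, while macrophages recruited from blood take up debris and matrix and digest them in lysosomes.

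Levels are given on the log2 scale on which they were deposited, so that a difference of 1 between group means is a 2-fold change, and every difference is bleomycin minus saline. Array medians at day 28 lay between 8.639 and 8.711, and the highest value on any array of the series was 14.69. The lung's defining markers were all well expressed. Sftpc, a surfactant protein gene of alveolar type II cells, had mean levels of 14.43 in bleomycin mice and 14.44 in saline mice, and Scgb1a1, the main secreted protein gene of club cells, had 14.54 in bleomycin mice and 14.59 in saline mice. Neither these nor Sftpb of type II cells, Foxj1 of ciliated cells and Ptprc of leukocytes were called at day 28, whereas Pecam1, a junction protein gene of endothelium, differed by -0.22 (SE 0.07, adjusted p = 0.012) and was called lower except when bleomycin mouse 2 was left out (adjusted p = 0.051). Values as high as those of Sftpc and Scgb1a1 lie near the top of the range of the arrays, where a difference can be understated. The median correlation of an array with the others of its group was 0.98389 to 0.99227 among bleomycin mice and 0.99078 to 0.99394 among saline mice, the lowest being that of bleomycin mouse 8.

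A gene was called higher or lower where the Benjamini-Hochberg adjusted p of limma, a linear model fitted across all genes and every array of the series, was under 0.05. At this threshold 1799 of 15707 genes (11.5%) were higher in bleomycin mice and 1847 (11.8%) were lower, which together make 23.2% of all genes. The median size of the difference over all genes was 0.11, and its median standard error was 0.08. Only 90 genes (0.573%) were called and more than 2-fold higher, and 22 (0.14%) were called and more than 2-fold lower. In 334 genes (2.13%) every bleomycin mouse lay above every saline mouse, and in 219 (1.39%) every bleomycin mouse lay below. Among the 90 genes that number was 48, and among the 22 it was 5. These shares are the background against which the gene lists that follow should be read. Values are those of the most variable probeset of a gene. Of the 52 named genes that were called and have several probesets, 41 had all of them called in the same direction and none had one called in the other, the value given was the largest in 46, and in 26 the least changed probeset was smaller by over 1.5 times.

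The largest increases were those of Mmp12, Dmp1 and Psrc1. Mmp12, the macrophage metalloelastase, which cuts elastin, had lowest, median and highest levels of 9.84, 11.55 and 12.08 in bleomycin mice, against 7.62, 8.07 and 8.85 in saline mice. All 8 bleomycin mice stood above the saline mice, and bleomycin mice 4 and 7, at 9.97 and 9.84, stood below the other 6. The difference was 3.06 (SE 0.31, adjusted p = 2.41e-12). Dmp1, which encodes an acidic matrix protein of bone and dentin, had levels of 5.04, 7.92 and 10.73 in bleomycin mice and 4.30, 4.84 and 5.43 in saline mice. The spread between bleomycin mice was wide for this gene, 1 of them lay within the saline range, and the difference was 2.85 (SE 0.52, adjusted p = 1.9e-05). Of its 3 probesets 2 were called, and the least changed gave 0.36. Psrc1, a p53 target whose product binds microtubules, had 9.49, 10.09 and 10.62 in bleomycin mice and 7.24, 7.66 and 8.10 in saline mice. Here the 2 groups were far apart and the bleomycin mice close together, with a difference of 2.35 (SE 0.31, adjusted p = 8.95e-09). All 3 of its probesets were called higher, the least changed at 0.70.

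Clec4n encodes dectin-2, a receptor of macrophages and dendritic cells for fungal sugars. Its levels were 9.85, 10.68 and 11.76 in bleomycin mice and 7.45, 8.51 and 9.09 in saline mice, without overlap, and the difference was 2.27 (SE 0.27, adjusted p = 5.15e-10). Trem2, a lipid-sensing receptor of macrophages and microglia, had 8.80, 10.09 and 10.35 in bleomycin mice and 7.53, 7.70 and 8.22 in saline mice, and the difference was 2.06 (SE 0.23, adjusted p = 1.32e-10). The other of its 2 probesets gave 0.25 and was not called. Gpnmb, a membrane glycoprotein gene of lipid-laden macrophages and osteoclasts, had 7.04, 8.02 and 8.54 in bleomycin mice and 5.82, 6.0 and 6.29 in saline mice, with a difference of 1.85 (SE 0.23, adjusted p = 9.08e-10). For Trem2 and Gpnmb the 2 lowest bleomycin mice were again mice 4 and 7, which still lay above every saline mouse.

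Among genes of other roles, Stra6l differed by 2.14, Fxyd4, a regulatory subunit gene of the sodium pump, by 1.94, and Zranb3, whose product remodels stalled DNA replication forks, by 1.75, each without overlap between the groups. Ereg, which encodes the EGF receptor ligand epiregulin, had levels of 8.13, 8.93 and 11.66 in bleomycin mice and 7.00, 7.55 and 7.78 in saline mice, a difference of 1.86 (SE 0.43, adjusted p = 0.000768). Sprr1a, a cornified envelope precursor gene that injured epithelium switches on, had 8.36, 8.81 and 10.67 in bleomycin mice and 6.87, 7.13 and 7.52 in saline mice, a difference of 1.82 (SE 0.36, adjusted p = 7.49e-05). For both, the groups did not overlap and the highest value was that of bleomycin mouse 8. Chodl, a lectin-like membrane protein gene, differed by 1.88, and 7 of the 8 bleomycin mice lay above the saline mice.

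Antibody genes made up the rest of the leading increases, and there the groups overlapped. Jchain, the chain that joins IgA and IgM subunits, had levels of 10.77, 11.99 and 13.33 in bleomycin mice and 9.08, 9.76 and 12.20 in saline mice. Only 3 of 8 bleomycin mice exceeded all saline mice, since saline mouse 4 reached 12.20, and the difference was 1.87 (SE 0.43, adjusted p = 0.000625). Igha, the constant region gene of the IgA heavy chain, differed by 1.81 (SE 0.41, adjusted p = 0.000522), with 5 bleomycin mice above all saline mice. A kappa light chain variable segment of the Igkv14 family differed by 1.83 (SE 0.46, adjusted p = 0.0019), with 4. Variable segments are near copies of each other, so the reading of this probeset may be shared with related segments. Of the 14 measured plasma cell and antibody genes 3 were higher and none lower, with a median difference of 0.14. The plasma cell genes Xbp1 and Txndc5 differed by 0.07 and 0.10 and were not called.

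**Figure D1:**
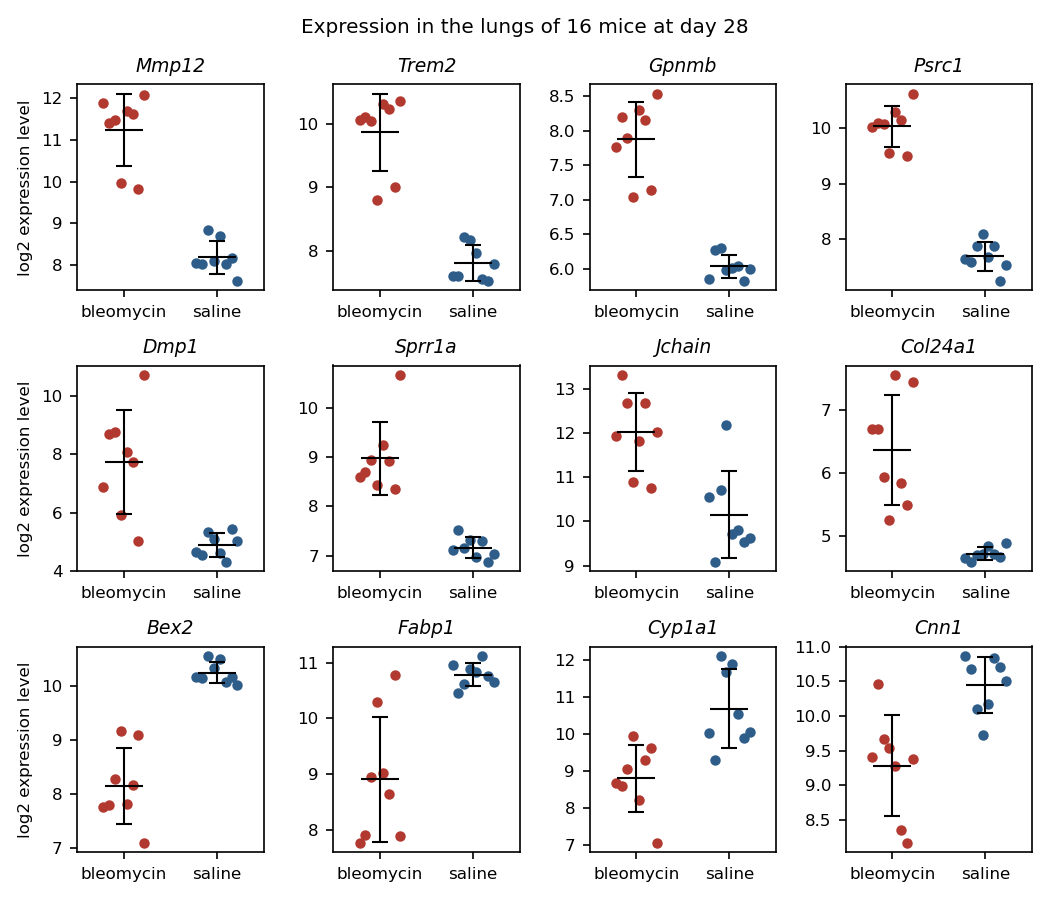
Log2 expression level of 12 genes in each of 16 lungs at day 28. Points are mice, with bleomycin on the left and saline on the right of each panel, the horizontal line is the mean and the bars are 1 SD; the vertical axes differ between panels and do not start at 0. Bleomycin mice stood clear of saline mice for Mmp12, Trem2, Gpnmb, Psrc1, Sprr1a, Col24a1 and Bex2, while Jchain, Cyp1a1, Fabp1, Cnn1 and Dmp1 overlapped.

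Genes that p53 switches on were higher 28 days after the single dose. Of 21 measured p53 targets 12 were called higher and 1 lower, against 11.5% and 11.8% of all genes, and their median difference was 0.35, against 0.0036 over all genes. Beside Psrc1, the larger changes were those of Cdkn1a, which encodes the cell cycle inhibitor p21, Eda2r, a death-domain receptor of the TNF family, and Ccng1, cyclin G1. Cdkn1a had levels of 10.05, 10.21 and 10.68 in bleomycin mice and 8.57, 9.08 and 9.27 in saline mice, a difference of 1.28 (SE 0.24, adjusted p = 2.8e-05). Eda2r had 9.02, 9.40 and 9.85 in bleomycin mice and 7.66, 8.20 and 8.57 in saline mice, a difference of 1.25 (SE 0.23, adjusted p = 2.07e-05). Ccng1 had 9.46, 9.70 and 9.89 in bleomycin mice and 8.87, 8.93 and 9.05 in saline mice, a difference of 0.78 (SE 0.18, adjusted p = 0.000939). None of the 3 genes overlapped between the groups. Sesn1, a sestrin that restrains mTORC1, went the other way, by -0.40 (SE 0.11, adjusted p = 0.00365), and all 8 bleomycin mice lay below the saline mice. Ei24 and Ddit4, the most highly expressed targets that were not called, differed by 0.08 and 0.12. The mean level of the list was higher in each of the 8 bleomycin mice than in any saline mouse. Among 10 measured senescence and cell cycle inhibitor genes 3 were higher, Cdkn1a, Cdkn2a, which encodes p16 and p19ARF, by 0.66 (SE 0.12, adjusted p = 1.17e-05), and Cdkn2b, which encodes p15, and none was lower.

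The promoters of Cdkn1a and Ccng1 are shown because both genes rose without overlap and both windows hold the p53 half-site, the element of which a pair makes a p53 binding site. Sequences are from RefSeq on mouse build GRCm38.p6, each runs from 250 bases before to 50 after a start of the gene, and capitals mark each match found on either strand. Cdkn1a lies on the plus strand (chr17:29090729-29091028) and holds 2 matches, and Ccng1 on the minus strand (chr11:40755237-40755536) holds 1.
Cdkn1a: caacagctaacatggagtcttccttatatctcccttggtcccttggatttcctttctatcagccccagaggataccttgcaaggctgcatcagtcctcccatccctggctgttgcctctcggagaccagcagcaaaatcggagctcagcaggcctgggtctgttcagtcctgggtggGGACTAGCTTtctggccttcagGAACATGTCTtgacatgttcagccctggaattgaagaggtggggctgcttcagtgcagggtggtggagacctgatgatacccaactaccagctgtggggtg
Ccng1: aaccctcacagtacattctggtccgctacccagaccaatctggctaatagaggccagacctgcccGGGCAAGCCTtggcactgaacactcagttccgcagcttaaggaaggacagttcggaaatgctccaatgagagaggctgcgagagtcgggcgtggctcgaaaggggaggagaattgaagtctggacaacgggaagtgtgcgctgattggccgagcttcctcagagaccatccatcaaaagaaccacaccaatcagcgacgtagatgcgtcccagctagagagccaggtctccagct
Of the 18 p53 targets with a RefSeq promoter, 8 (44.4%) held a half-site, against 9.55% of all 27025 genes with a promoter and 8.58% of the tested genes with one. The 8 held 5 targets called higher, Sesn1, which was lower, and 2 not called, one of them Ei24, and no half-site was found in the windows of Psrc1 and Eda2r. A match describes the sequence and does not show that p53 bound there in these lungs.

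Macrophage genes of lipid uptake and scavenging were higher as a group, and so were lysosomal genes. Of 22 lipid-handling and scavenger genes 11 were higher and 2 lower, with a median of 0.33. After Trem2 and Gpnmb came Msr1, a scavenger receptor for oxidised lipoproteins, at 1.66, and Olr1, another such receptor, at 1.45. Msr1 levels were 9.16, 9.97 and 11.19 in bleomycin mice and 8.00, 8.35 and 8.61 in saline mice, and Olr1 levels were 10.21, 10.51 and 11.31 in bleomycin mice and 8.61, 9.15 and 9.55 in saline mice, without overlap for either. The 2 that were lower were Stab1, a clearance receptor, at -0.28, and Cd36, a fatty acid transporter that capillary endothelium also expresses, at -0.17, whose call was lost without bleomycin mouse 2 or 8 (adjusted p = 0.0516 to 0.0593). Lysosomal enzymes and subunits of the lysosomal proton pump were called higher in 19 of 28 cases and lower in none, with a median of 0.26. Differences in this list ran from -0.16 to 1.28. Lipa, lysosomal acid lipase, had levels of 10.49, 10.68 and 10.90 in bleomycin mice and 9.62, 9.83 and 10.25 in saline mice, a difference of 0.81 (SE 0.10, adjusted p = 2.21e-09) with no overlap. The cathepsins Ctss and Ctsb differed by 0.64 (SE 0.07, adjusted p = 3.13e-11) and 0.62 (SE 0.10, adjusted p = 1.7e-06), while the membrane protein Lamp1 differed by 0.03 and was not called.

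Genes that osteoclasts use to dissolve bone were higher in 7 of 16 cases and lower in none, with a median of 0.28. Atp6v0d2, a proton pump subunit of osteoclasts and alveolar macrophages, had 9.86, 10.65 and 11.08 in bleomycin mice and 8.97, 9.33 and 9.77 in saline mice and differed by 1.28 (SE 0.20, adjusted p = 1.47e-06). Ctsk, the collagen-cutting cathepsin K, differed by 1.28 (SE 0.18, adjusted p = 6.61e-08), and Acp5, tartrate-resistant acid phosphatase, by 1.11 (SE 0.16, adjusted p = 1.21e-07), each with 7 of 8 bleomycin mice above the saline mice. Calcr, the calcitonin receptor, differed by 0.72 (SE 0.19, adjusted p = 0.00277). Mmp9, which is on this list and which neutrophils carry as well, differed by -0.70 (SE 0.32, adjusted p = 0.111) and was not called. Its other probeset gave -0.81 and was called lower when limma tested every probeset (adjusted p = 0.0272). Mmp9 was also called lower with the arrays of day 28 alone (adjusted p = 0.0218) and with array quality weights (adjusted p = 0.0402). For the lysosomal, the lipid-handling and the osteoclast-like lists alike, the mean level of the list was higher in all 8 bleomycin mice than in every saline mouse.

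Of 15 matrix metalloproteases 7 were higher and 1 lower, with a median of 0.36. Mmp10, stromelysin 2, had levels of 5.85, 7.41 and 8.48 in bleomycin mice and 5.71, 5.79 and 6.10 in saline mice, a difference of 1.42 (SE 0.33, adjusted p = 0.000734), and 7 bleomycin mice lay above the saline mice. Mmp13, an interstitial collagenase, differed by 0.98 (SE 0.25, adjusted p = 0.00198), and Mmp19 by 0.83 (SE 0.18, adjusted p = 0.000264). Mmp17, a membrane-anchored member, was the lower one, at -0.28. Mmp3 and Mmp23 differed by -0.01 and -0.06 and were not called. Timp1, an inhibitor of these enzymes, had levels of 9.84, 10.47 and 12.58 in bleomycin mice and 9.31, 9.84 and 10.59 in saline mice. Its difference of 0.75 (SE 0.36, adjusted p = 0.119) was not called. Bleomycin mouse 8 held the highest value, and 6 of the 8 bleomycin mice lay within the saline range.

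Promoters of Mmp12, Mmp10, Trem2 and Gpnmb are printed because these are the 2 members with the largest increases of the metalloprotease list and of the lipid-handling list, and each window holds TGANTCA. The usual AP-1 site has C or G at the centre of this pattern, as do the matches of Mmp12, Mmp10 and Gpnmb. The search also took A or T there, so its counts are not counts of AP-1 sites, and the Trem2 match, TGAATCA, has A. Capitals mark the match, and both strands were searched, on which the motif reads the same. The windows are chr9:7347124-7347423, chr9:7502092-7502391, chr17:48346151-48346450 and chr6:49036268-49036567 of GRCm38.p6 for Mmp12, Mmp10, Trem2 and Gpnmb, all on the plus strand.
Mmp12: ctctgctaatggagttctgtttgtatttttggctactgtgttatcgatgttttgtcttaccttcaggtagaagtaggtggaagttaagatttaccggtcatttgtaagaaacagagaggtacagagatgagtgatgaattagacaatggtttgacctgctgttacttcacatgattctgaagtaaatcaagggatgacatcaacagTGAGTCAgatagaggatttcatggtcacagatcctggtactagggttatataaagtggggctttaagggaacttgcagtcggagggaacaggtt
Mmp10: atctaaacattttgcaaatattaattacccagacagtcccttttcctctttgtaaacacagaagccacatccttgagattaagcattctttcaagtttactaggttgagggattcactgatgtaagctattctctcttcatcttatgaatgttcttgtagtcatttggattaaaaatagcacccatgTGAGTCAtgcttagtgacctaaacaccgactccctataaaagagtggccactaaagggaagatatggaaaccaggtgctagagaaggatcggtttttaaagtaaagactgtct
Trem2: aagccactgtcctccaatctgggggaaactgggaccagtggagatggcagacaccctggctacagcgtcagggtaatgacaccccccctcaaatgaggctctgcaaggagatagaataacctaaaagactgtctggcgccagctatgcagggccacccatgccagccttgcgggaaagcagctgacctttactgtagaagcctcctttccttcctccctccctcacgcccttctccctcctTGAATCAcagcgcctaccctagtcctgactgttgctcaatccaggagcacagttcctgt
Gpnmb: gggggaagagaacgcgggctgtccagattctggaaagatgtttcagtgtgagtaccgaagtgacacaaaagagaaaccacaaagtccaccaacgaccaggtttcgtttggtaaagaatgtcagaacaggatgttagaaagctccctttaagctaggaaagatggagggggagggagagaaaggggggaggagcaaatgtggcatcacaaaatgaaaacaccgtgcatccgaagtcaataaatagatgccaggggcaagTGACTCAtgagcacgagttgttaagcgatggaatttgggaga
TGANTCA stood in the promoters of 5 of 10 metalloproteases (Mmp3, Mmp7, Mmp10, Mmp12 and Mmp13), of which Mmp3 was not called, and of 4 of 16 lipid-handling genes. It was present in 17 of 75 promoters (22.7%) of the genes over 2-fold higher and in 3 of 14 (21.4%) of the genes over 2-fold lower, against 7.23% of tested genes and 8.97% of all genes with a promoter.

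For the lysosomal list, 4 of 21 promoters (19%) held TCACGTGA, the CLEAR-type element bound by factors of the TFEB family, against 1.12% of all genes with a promoter and 1.69% of tested genes. They belong to Atp6v0d1, Atp6v1a, Ctsa and Gla. Ctsa, cathepsin A, and Atp6v1a, the catalytic subunit of the proton pump, are shown as members that were called higher, chosen after their values were seen, with differences of 0.39 (SE 0.06, adjusted p = 4.52e-07) and 0.35 (SE 0.06, adjusted p = 4.29e-06). A second probeset of Ctsa gave -0.05 and was not called. Capitals mark the motif, which is the same on both strands; the windows are chr2:164833523-164833822 on the plus strand for Ctsa and chr16:44139210-44139509 on the minus strand for Atp6v1a, of GRCm38.p6.
Ctsa: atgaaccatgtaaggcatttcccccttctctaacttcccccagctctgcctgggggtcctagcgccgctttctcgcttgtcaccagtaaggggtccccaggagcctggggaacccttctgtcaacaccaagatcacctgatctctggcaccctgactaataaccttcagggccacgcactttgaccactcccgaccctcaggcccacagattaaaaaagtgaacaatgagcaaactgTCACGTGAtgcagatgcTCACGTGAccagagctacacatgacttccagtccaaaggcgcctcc
Atp6v1a: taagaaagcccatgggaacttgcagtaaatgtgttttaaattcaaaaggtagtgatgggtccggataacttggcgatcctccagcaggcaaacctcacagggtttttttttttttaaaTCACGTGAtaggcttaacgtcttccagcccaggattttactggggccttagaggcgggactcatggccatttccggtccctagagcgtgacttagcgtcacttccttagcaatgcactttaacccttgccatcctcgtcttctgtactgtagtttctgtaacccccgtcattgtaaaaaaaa
As with the other motifs, a match describes these letters only.

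Alveolar macrophage genes did not move one way. Of the 14 genes on this list 6 were higher and 4 lower, and the list held both Atp6v0d2 and some of the deepest decreases of the comparison. Fabp1, a fatty acid binding protein gene, had 7.76, 8.79 and 10.78 in bleomycin mice and 10.45, 10.79 and 11.12 in saline mice, a difference of -1.88 (SE 0.44, adjusted p = 0.000878), and Krt79, a keratin gene, differed by -1.44 (SE 0.28, adjusted p = 4.71e-05). In both genes 7 of 8 bleomycin mice lay below the saline mice. Car4, which is also on the endothelial list, was another of the lower members, at -0.48. Itgax, the integrin chain CD11c, which dendritic cells also carry, was higher by 0.84 (SE 0.14, adjusted p = 2.27e-06). Siglecf and Chil3 differed by -0.04 and 0.32 and were not called. For Chil3, however, 7 of 8 bleomycin mice lay above all saline mice. In a limma fit to the arrays of day 28 alone Chil3 was called higher (adjusted p = 0.00531).

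Complement and chemokine genes rose in part of their lists. Of 12 complement genes 6 were higher and none lower, with a median of 0.46. C3ar1, the receptor for the C3a fragment, had 8.38, 9.36 and 9.74 in bleomycin mice and 7.48, 7.68 and 8.31 in saline mice, a difference of 1.38 (SE 0.27, adjusted p = 5.56e-05) without overlap. The subunit genes of C1q, which macrophages make, differed by 0.87 (C1qa), 1.02 (C1qb) and 0.81 (C1qc). Among 14 CC chemokines 6 were higher and none lower, with a median of 0.33, and 3 were higher without bleomycin mouse 8. Ccl3, which attracts macrophages, had 8.00, 8.55 and 10.07 in bleomycin mice and 7.35, 7.44 and 7.90 in saline mice and differed by 1.11 (SE 0.25, adjusted p = 0.00049). Ccl12, a ligand of the monocyte receptor CCR2, differed by 1.19 (SE 0.38, adjusted p = 0.0155) and lost its call without mouse 8 (adjusted p = 0.0818). Of 17 CXC and other chemokines 2 were higher, or 1 to 3 with single mice left out, and 1 was lower. That is 17.65% called, against 23.2% of all genes. Cxcl16, a membrane-bound chemokine and scavenger receptor, was higher at 0.44 (SE 0.09, adjusted p = 7.42e-05), and Cx3cl1, fractalkine, was lower at -0.41 (SE 0.12, adjusted p = 0.00939), with 2 of its 4 probesets called. Acute-phase proteins were higher in 4 of 14 cases, a number that fell to 1 without mouse 8, and lower in 1. Saa3, a serum amyloid gene that macrophages and epithelium express, had 9.59, 11.31 and 13.55 in bleomycin mice and 9.32, 9.51 and 10.10 in saline mice and differed by 1.60 (SE 0.51, adjusted p = 0.0157), with adjusted p = 0.0774 without mouse 8. Il1rn, the interleukin 1 receptor antagonist, differed by 1.51 (SE 0.30, adjusted p = 7.29e-05), with all bleomycin mice above the saline mice, and was the only one of 32 interleukin and cytokine genes both called and over 2-fold.

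Few lymphocyte markers were called. T cell markers were higher in 3 of 15 cases, all of them genes of regulatory or activated T cells. Ctla4, an inhibitory receptor, differed by 0.79 (SE 0.23, adjusted p = 0.00718), while Il2ra at 0.43 and Foxp3 at 0.26 lost their calls when single mice were left out (Il2ra without bleomycin mice 1, 2 or 8 or saline mice 6 or 8, Foxp3 without bleomycin mice 1, 2, 3 or 8 or saline mice 1, 5, 6, 7 or 8), so that the count was 1 without bleomycin mice 1, 2 or 8 or saline mice 6 or 8. The receptor chain genes Cd3g and Cd3d differed by 0.03 and -0.02 and were not called. NK and cytotoxic cell markers were lower in 3 of 14 cases, led by S1pr5 at -0.67 (SE 0.17, adjusted p = 0.00251), and B cell markers in 2 of 11, led by the kinase gene Blk at -0.64 (SE 0.20, adjusted p = 0.0135), with none higher in either list. Leaving out single mice gave 1 to 5 lower NK genes (1 without saline mouse 5) and 1 to 4 lower B cell genes (1 without bleomycin mouse 8, with Blk at adjusted p = 0.0549). Dendritic cell markers were higher in 6 of 10 cases, led by Itgae at 0.65 (SE 0.16, adjusted p = 0.00195) and the chemokine receptor gene Xcr1 at 0.59 (SE 0.14, adjusted p = 0.000725), both found on cross-presenting dendritic cells. Of 15 neutrophil markers 3 were higher. Clec4d, a C-type lectin that monocytes also carry, differed by 1.56 (SE 0.30, adjusted p = 5.88e-05), and Cd177 by 1.16, while the granule genes S100a8 and S100a9 differed by 0.04 and -0.09 and were not called.

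**Figure D2:**
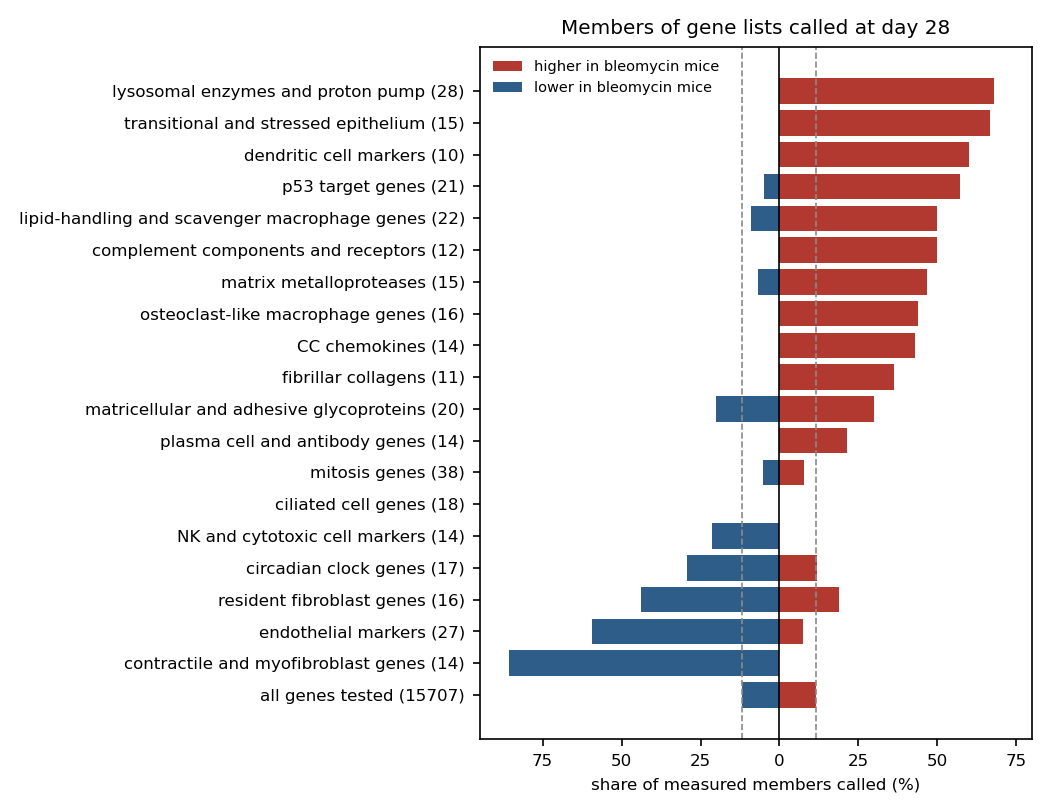
Share of measured members called higher (right of 0) and lower (left of 0) in bleomycin mice, in percent, for 19 gene lists and for all genes, with the number measured in parentheses. The dashed lines mark the shares among all genes, 11.5% higher and 11.8% lower. Lysosomal genes had 19 of 28 members higher and contractile genes 12 of 14 lower, while ciliated cell genes had none called.

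Matrix genes were higher for part of the fibrillar collagens and adhesive glycoproteins and unequal elsewhere. Of 11 fibrillar collagen genes 4 were higher and none lower, with a median of 0.30, and 2 were higher without bleomycin mouse 5 or 8 or without saline mouse 7 or 8. Col24a1, a collagen of developing bone and cornea, was the only one over 2-fold. It had levels of 5.25, 6.32 and 7.55 in bleomycin mice and 4.60, 4.72 and 4.90 in saline mice, with a difference of 1.64 (SE 0.25, adjusted p = 5.41e-07). The major interstitial collagens moved less. Col3a1 had 11.59, 12.04 and 12.45 in bleomycin mice and 10.91, 11.67 and 12 in saline mice and differed by 0.48 (SE 0.18, adjusted p = 0.0397), and Col1a2 differed by 0.37 (SE 0.12, adjusted p = 0.0205). The call of Col1a2 was lost without any 1 of those 4 mice and that of Col3a1 without any 1 of bleomycin mice 1, 2, 5 or 8 or saline mice 6, 7 or 8. The most intense probeset gave 0.13 (adjusted p = 0.184) for Col1a2 and 0.14 (adjusted p = 0.298) for Col3a1. Col1a1 had 12.34, 12.85 and 13.30 in bleomycin mice and 12.27, 12.64 and 12.91 in saline mice. Its difference of 0.18 (SE 0.12, adjusted p = 0.296) was not called, and 3 bleomycin mice lay above all saline mice. Against the mean of all saline groups of the series in place of the day-28 saline mice it was 0.33 (adjusted p = 0.00224). Among 20 matricellular and adhesive glycoproteins 6 were higher and 4 lower. Thbs4, thrombospondin 4, had 6.75, 8.45 and 9.26 in bleomycin mice and 6.20, 6.44 and 6.58 in saline mice, without overlap, and differed by 1.70 (SE 0.28, adjusted p = 2.27e-06). Tnc, tenascin C, differed by 1.53 (SE 0.36, adjusted p = 0.000739), Fn1, fibronectin, by 0.82 (SE 0.17, adjusted p = 0.000156) and Cilp by 0.81 (SE 0.24, adjusted p = 0.00909). The calcium-binding Smoc1 and Smoc2 went the other way, at -0.63 and -0.42.

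Other matrix and signalling lists held calls in both directions, as did all genes, of which 11.5% were higher and 11.8% lower. The share called was near the 23.2% of all genes for basement membrane and other collagens (25.93%), Wnt genes (28.57%) and growth factors (27.59%). It was 18.75% for collagen processing, 46.67% for elastic fibre genes and 45.16% for TGF-beta, activin and BMP signalling. Elastic fibre genes were higher in 3 of 15 cases and lower in 4. Eln, elastin, had 8.53, 9.22 and 10.67 in bleomycin mice and 8.11, 8.47 and 9.24 in saline mice, a difference of 0.86 (SE 0.20, adjusted p = 0.000869), with 4 bleomycin mice above all saline mice. The latent TGF-beta binding protein genes split, with Ltbp2 at 0.58 and Ltbp4 at -0.43. Of 27 basement membrane and other collagens 3 were higher, with Col4a3 of the alveolar basement membrane at 0.61, and 4 lower, with the hemidesmosome collagen Col17a1 at -0.71. Of 16 genes of collagen processing and crosslinking 1 was higher, P4ha3, a prolyl hydroxylase subunit, at 0.75 (SE 0.18, adjusted p = 0.00146), and 2 were lower. Leaving out single mice gave 1 to 4 higher, with 4 without bleomycin mouse 6, and 0 to 3 lower, with 0 without bleomycin mouse 2 or 6 or saline mouse 5. Of 28 Wnt genes 4 were higher and 4 lower, with 2 higher without bleomycin mouse 8 and 6 lower without bleomycin mouse 4, and of 31 genes of TGF-beta, activin and BMP signalling 8 were higher and 6 lower, with 5 higher without bleomycin mouse 3 or 8 or saline mouse 5, 7 or 8. Sfrp1, a Wnt antagonist, had 7.53, 7.70 and 8.73 in bleomycin mice and 6.35, 6.79 and 7.29 in saline mice without overlap and differed by 1.07 (SE 0.23, adjusted p = 0.00025), and Grem1, a BMP antagonist, by 1.00 (SE 0.38, adjusted p = 0.0405), a call lost without any 1 of bleomycin mice 1, 2, 3, 5 or 8 or saline mice 3, 4, 5, 7 or 8. The growth factor genes Pdgfc and Igf1 differed by 0.83 (SE 0.17, adjusted p = 0.000122) and 0.71 (SE 0.20, adjusted p = 0.00545), and were the only higher members of 29 in their list, in which 6 were lower.

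Epithelial genes of injury and transition were higher in 10 of 15 cases and lower in none, with a median of 0.63. After Sprr1a and Cdkn1a came Itgb6, the integrin chain that activates latent TGF-beta, with levels of 8.06, 8.60 and 9.44 in bleomycin mice and 7.47, 7.69 and 8.34 in saline mice and a difference of 0.92 (SE 0.17, adjusted p = 1.91e-05). Krt14, a basal cell keratin gene, had 5.90, 7.36 and 8.06 in bleomycin mice and 6.09, 6.31 and 6.46 in saline mice and differed by 0.92 (SE 0.17, adjusted p = 3.25e-05), with 1 of its 3 probesets not called at 0.10. Bleomycin mouse 4 had the lowest Krt14 level of all 16 mice, and the other 7 bleomycin mice lay above every saline mouse. Alveolar type II genes were higher in 6 of 18 cases, with Scd1, a fatty acid desaturase, at 0.81 (SE 0.15, adjusted p = 1.75e-05) (its other probeset at 0.16) and Slc6a14, an amino acid transporter, at 0.59 (SE 0.09, adjusted p = 7e-07). Type I genes were higher in 3 of 16, or 5 of 16 without bleomycin mouse 2, with the tight junction gene Cldn18 at 0.59, whose other probeset gave 0.13. Club cell genes were lower in 4 of 14 cases, or 1 without bleomycin mouse 8, and higher in 1, the uroplakin gene Upk3a at 0.93 (SE 0.09, adjusted p = 7.5e-13). None of 18 ciliated cell genes was called by limma, and 1 had an unadjusted p under 0.05. In the goblet and mucous list 3 of 17 were higher, with Slc26a4, the anion exchanger pendrin, at 1.26 (SE 0.34, adjusted p = 0.00401).

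Among the decreases, genes of smooth muscle contraction had the largest share of lower members of all lists described. Of 14 contractile and myofibroblast genes 12 were lower and none higher, against 11.8% of all genes lower, and their median difference was -0.52. Cnn1, calponin 1, had levels of 8.16, 9.39 and 10.46 in bleomycin mice and 9.72, 10.59 and 10.87 in saline mice, a difference of -1.17 (SE 0.22, adjusted p = 4.86e-05). Myh11, smooth muscle myosin heavy chain, had 9.93, 10.98 and 11.53 in bleomycin mice and 11.43, 11.80 and 12.05 in saline mice, a difference of -1.01 (SE 0.17, adjusted p = 3.46e-06). In both, 7 bleomycin mice lay below all saline mice and mouse 2 did not. Acta2, smooth muscle alpha-actin, which marks myofibroblasts and was picked here after its value was seen, differed by -0.75 (SE 0.29, adjusted p = 0.0464), but its call was lost without any 1 of bleomycin mice 1, 3, 6, 7 or 8 or saline mice 1, 5, 6, 7 or 8, with adjusted p of 0.055 to 0.112. The number of lower members was 9 to 12 when each of the 16 mice was left out in turn.

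Heart muscle transcripts, which a lung sample can carry from the walls of large pulmonary veins or from tissue cut out with it, varied widely between mice of both groups. The mean level of 18 cardiac muscle genes ran from 8.43 to 11.42 in bleomycin mice and from 9.34 to 11.42 in saline mice. Of these genes 2 were called lower, or 1 without bleomycin mouse 8 or saline mouse 8, none was higher, and the median difference was -0.61. Saline mice 3, 4 and 5 were the 3 lowest of their group in both the cardiac and the contractile mean, and bleomycin mouse 7 was the lowest of its group in both. With the mean cardiac level as a covariate, an adjustment chosen after seeing the data, 10 of the 14 contractile genes were called lower. Myh11 stood at -0.91 and Cnn1 at -1.02, while Acta2 was not called by limma (-0.75, adjusted p = 0.0525). The cardiac mean does not measure how much smooth muscle a sample held. Adipose genes varied in the same way, with mean levels of 13 genes between 7.59 and 10.17 in bleomycin mice and between 7.71 and 9.85 in saline mice. What part unequal dissection had in any value was not tested.

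**Figure D3:**
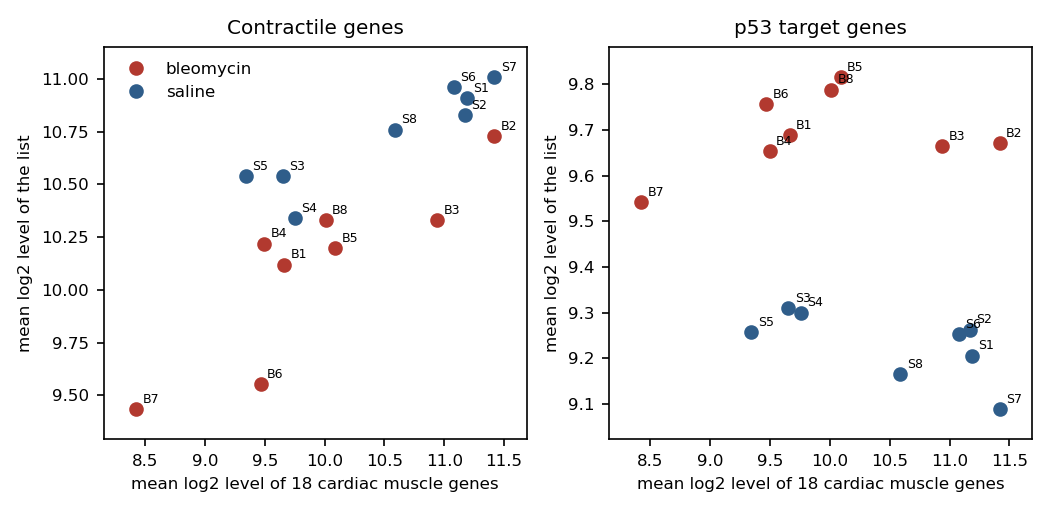
Mean log2 level of the contractile list (left) and of the p53 target list (right) against the mean log2 level of 18 cardiac muscle genes, for 8 bleomycin mice (B1 to B8) and 8 saline mice (S1 to S8). Bleomycin mice lay below saline mice of a like cardiac level for contractile genes, and for p53 targets all bleomycin mice lay above all saline mice. What part dissection had was not tested.

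Endothelial genes were lower in 16 of 27 cases and higher in 2, with a median of -0.25. Plvap, which forms the diaphragms of capillary fenestrae and caveolae, had 11.61, 12.20 and 12.64 in bleomycin mice and 12.64, 12.75 and 13.06 in saline mice, a difference of -0.59 (SE 0.11, adjusted p = 2.58e-05). Eng, endoglin, a co-receptor for TGF-beta and BMP ligands, differed by -0.66 (SE 0.12, adjusted p = 4.15e-05), and Car4, the carbonic anhydrase of alveolar capillaries, by -0.48 (SE 0.09, adjusted p = 2.74e-05). All 8 bleomycin mice lay below the saline mice for Plvap and Car4. The 2 that rose mark other vessels. Ackr1, a chemokine-binding receptor of venules, had 7.59, 8.32 and 9.65 in bleomycin mice and 7.03, 7.48 and 7.79 in saline mice and differed by 0.91 (SE 0.26, adjusted p = 0.00677), and Prox1, the transcription factor of lymphatic endothelium, differed by 0.84 (SE 0.14, adjusted p = 4.32e-06). Genes of resident lung fibroblasts were lower in 7 of 16 cases and higher in 3. Fgfr4 differed by -0.69 (SE 0.15, adjusted p = 0.000421), Wnt2 by -0.65 (SE 0.13, adjusted p = 0.000114), and Pi16, a marker of adventitial fibroblasts, by -0.58.

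The largest single decreases came from genes of varied function. Bex2, a small signalling adaptor gene best known from neurons, had levels of 7.10, 8.00 and 9.17 in bleomycin mice and 10.02, 10.16 and 10.55 in saline mice. No bleomycin mouse reached the saline range, and the difference was -2.09 (SE 0.24, adjusted p = 2.91e-10). Its relative Bex1 differed by -0.80 (SE 0.14, adjusted p = 7.53e-06), also without overlap. Cyp1a1, the cytochrome P450 that the aryl hydrocarbon receptor induces, had 7.04, 8.85 and 9.94 in bleomycin mice and 9.30, 10.29 and 12.12 in saline mice, a difference of -1.89 (SE 0.39, adjusted p = 0.000163). Saline mice 3 to 5 held its 3 highest levels, the lowest saline mice lay within the bleomycin range, and no other of the 8 genes of its list was lower. Asgr1, a subunit gene of the asialoglycoprotein receptor of liver, had 6.97, 8.14 and 9.08 in bleomycin mice and 9.19, 9.66 and 9.84 in saline mice, a difference of -1.45 (SE 0.27, adjusted p = 2.39e-05). Igfbp3, an IGF-binding protein gene, had 8.88, 10.04 and 10.74 in bleomycin mice and 10.87, 11.21 and 11.33 in saline mice, a difference of -1.18 (SE 0.21, adjusted p = 1.61e-05).

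Several of the remaining decreases were in genes of receptors and transporters. Gria1, an AMPA-type glutamate receptor subunit, differed by -1.24, Htr2c, a serotonin receptor, by -1.24, Shisa9, an auxiliary protein of AMPA receptors, by -1.26 and Slc7a10, a neutral amino acid transporter, by -1.13. One of the 3 Shisa9 probesets was not called and gave 0.06. Tmem132d, Ankrd63 and Susd5 differed by -1.59, -1.17 and -1.12. Bleomycin mice lay wholly below saline mice for Htr2c, Slc7a10, Asgr1, Igfbp3 and Bex2, while Shisa9 and Ankrd63 overlapped in 4 bleomycin mice each. Of 14 neural and neuroendocrine genes 3 were higher, with the imprinted gene Nnat at 1.22 (SE 0.21, adjusted p = 6.56e-06), and only the Bex genes were lower.

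Clock genes were lower in 5 of 17 cases, or 3 without bleomycin mouse 8, and higher in 2, or 1 to 3 with single mice left out. Nr1d1 and Per1, repressors of the clock's transcription loop, differed by -0.56 (SE 0.14, adjusted p = 0.00238) and -0.54 (SE 0.15, adjusted p = 0.00588). Unfolded protein response genes were higher in 8 of 21 cases, with Sdf2l1 at 0.48 (SE 0.14, adjusted p = 0.00764). Of 38 mitosis genes 3 were higher and 2 lower, and of 38 DNA replication genes 2 were higher and 3 lower, shares below those of all genes, although the median of the mitosis list was 0.27. Single omissions gave 1 to 10 higher mitosis genes, with 10 without bleomycin mouse 7 or saline mouse 4, and 0 to 5 higher and 1 to 4 lower replication genes, with 5 higher without bleomycin mouse 7 and 1 lower without bleomycin mouse 6 or 8.

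Bleomycin mice differed among themselves more than saline mice did. The SD was larger in bleomycin mice for 64.8% of genes, with a median ratio of 1.18 over all genes, 2.16 over the 90 genes more than 2-fold higher and 2.61 over the 22 more than 2-fold lower. The 90 and the 22 genes were chosen by the difference in these same mice, to which single extreme bleomycin mice add. Their ratios, and the deviations of the 90 genes that follow, are therefore not independent of that choice. The median deviation of the 90 genes from the saline mean was 0.55 in mouse 4 and 0.63 in mouse 7, between 1.28 and 1.66 in mice 1, 2, 3, 5 and 6, and 2.24 in mouse 8. Genes more than 2-fold higher at day 14, which include 78 of the 90, again put mice 4 and 7 lowest and mouse 8 highest. Over these 379 genes, mouse 7 stood at 0.09 and mouse 4 at 0.16, within the saline mice at -0.17 to 0.22, and mouse 8 at 1.24. Over the 118 genes more than 2-fold lower at day 14, mouse 7 was nearest the saline mean at -0.38 and mouse 8 furthest at -1.09. Over the 51 genes more than 2-fold lower at day 21 the order was another, with mouse 2 at -0.07, mouse 7 at -1.08 and mouse 6 at -1.15.

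The order with mice 4 and 7 lowest and mouse 8 highest also held for mitosis genes, but only in part for fibrillar collagens and p53 targets. The p53 target median was 0.28 in mouse 4 and 0.41 in mouse 8. Over all 8 it ran narrowly from 0.16 in mouse 7 to 0.49 in mouse 5, and in saline mice from -0.10 to 0.07. By mean level of the p53 list, mice 7 and 4 were lowest, at 9.54 and 9.65, but mouse 5 was highest, at 9.82. Fibrillar collagens had medians of -0.02, 0.00 and -0.01 in mice 4, 6 and 7 and of 0.85 in mouse 8, so mouse 6 stood as low as mice 4 and 7. By mean level of this list, mice 7 and 6 were lowest, at 8.59 and 8.64, with mouse 4 at 8.67. The mitosis median spread from -0.26 in mouse 7 to 1.01 in mouse 8.

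**Figure D4:**
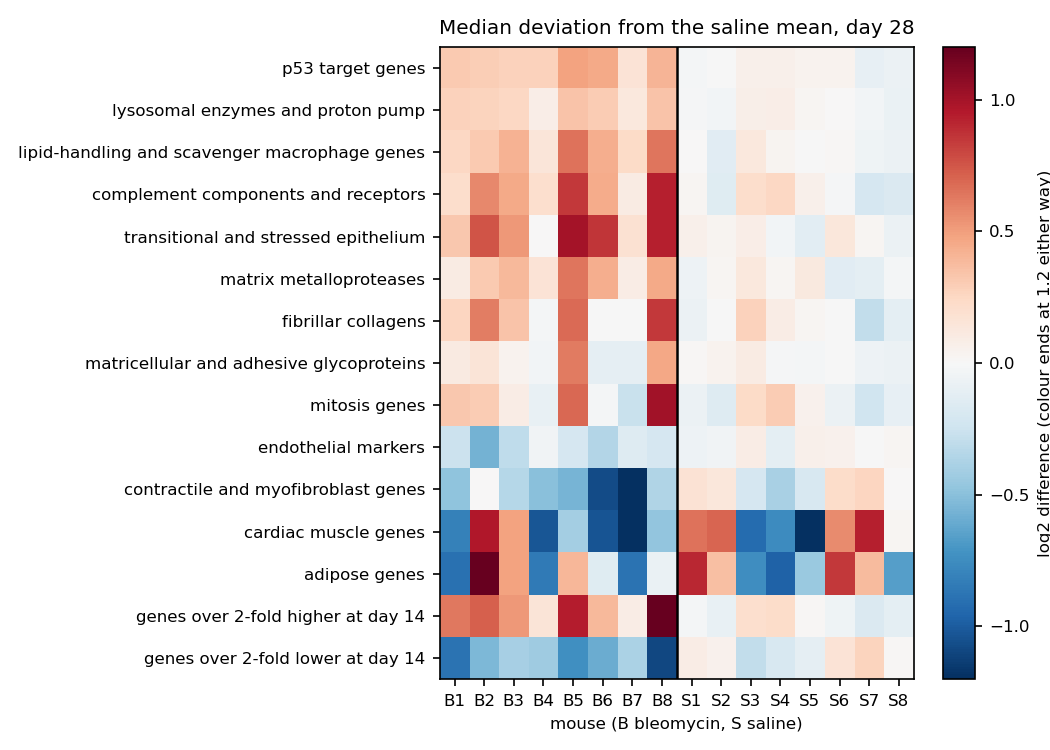
Median deviation of gene lists from the mean of the saline mice at day 28, on the log2 scale, in 8 bleomycin mice (left) and 8 saline mice (right). Red is above and blue below the saline mean. The p53 and lysosomal lists were above it in all bleomycin mice, matrix and mitosis lists were highest in mice 5 and 8, and the cardiac and adipose lists varied widely in both groups, over a wider range in bleomycin mice.

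Of the 90 genes more than 2-fold higher at day 28, 78 (86.7%) were also called and more than 2-fold higher at day 14, 75 (83.3%) at day 21 and 65 (72.2%) at day 35, each day having saline mice of its own. Those genes made up 20.6%, 41.9% and 63.7% of the genes over 2-fold higher on the same 3 days. On day 1 the number shared was 17, with 59 of all genes over 2-fold higher, and on day 2 it was 34, with 149. The 3 that passed on no other day were D6Ertd527e, Npy, which encodes neuropeptide Y, and Pde1c, a cyclic nucleotide phosphodiesterase, named after their values were seen, with differences of 1.02, 1.26 and 1.02. Of the 6 Pde1c probesets 4 were called, the least changed giving 0.04. Of the 22 lower genes 18 were also over 2-fold lower at day 14, 17 at day 21 and 15 at day 35. Among all genes 118, 51 and 61 were over 2-fold lower on these days.

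When the responses themselves were compared, day 28 differed from day 14 in 1078 genes (6.86%), with the response lower at day 28 in 752 (4.79%) and higher in 326 (2.08%). More than 2-fold of difference was found in 116 (0.739%) and 7 (0.0446%) of them. Against day 21 only 13 genes (0.0828%) differed, 4 higher (0.0255%) and 9 lower (0.0573%), with 1 over 2-fold (0.00637%), and against day 35 only 7 (0.0446%), 3 higher (0.0191%) and 4 lower (0.0255%). Leaving out single mice gave 3 to 43 genes against day 21, with 43 without bleomycin mouse 7, and 5 to 11 against day 35, with 11 without bleomycin mouse 8 or saline mouse 4. Array quality weights gave 2273, 339 and 181 genes against days 14, 21 and 35. Has2, hyaluronan synthase 2, had a difference from saline of 0.62 at day 28 and 2.60 at day 14, and the change between them, day 28 minus day 14, was -1.98, adjusted p = 0.00813. Thbs4 had 1.70 at day 28 and 3.47 at day 14 (-1.77, adjusted p = 0.00171), and Eln 0.86 at day 28 and 2.30 at day 14 (-1.44, adjusted p = 0.000431). Fn1 had 0.82 at day 28 and 1.95 at day 14 (-1.12, adjusted p = 0.00123), and Col1a1 0.18 at day 28 and 0.95 at day 14 (-0.77, adjusted p = 0.00217). Mmp12 had 3.60 at day 14, 3.29 at day 21, 3.06 at day 28 and 2.90 at day 35, and Trem2 had 2.62, 1.95, 2.06 and 1.85, with adjusted p for day 28 against day 14 of 0.526 and 0.342.

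By list, the response was lower at day 28 than at day 14 in 35 of 38 mitosis genes, 30 of 38 DNA replication genes, 7 of 11 fibrillar collagens, 8 of 20 matricellular genes and 4 of 12 complement genes. It was lower in 1 of 21 p53 targets and in none of 28 lysosomal genes, beside 752 of all 15707 genes. The mitosis median was 1.41 at day 14, 0.75 at day 21, 0.27 at day 28 and 0.14 at day 35, and the p53 median was 0.50, 0.35, 0.35 and 0.28 on the same days. Contractile genes had medians of -0.11, -0.71, -0.52 and -0.30, and 3 of 14 had a lower response at day 28 than at day 14. For Igha the difference was 0.38 on day 7, 1.88 on day 14, 0.98 on day 21, 1.81 on day 28 and 2.71 on day 35, although day 28 was not shown to differ from day 14 or day 35 for that gene (adjusted p of 0.964 and 0.682).

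**Figure D5:**
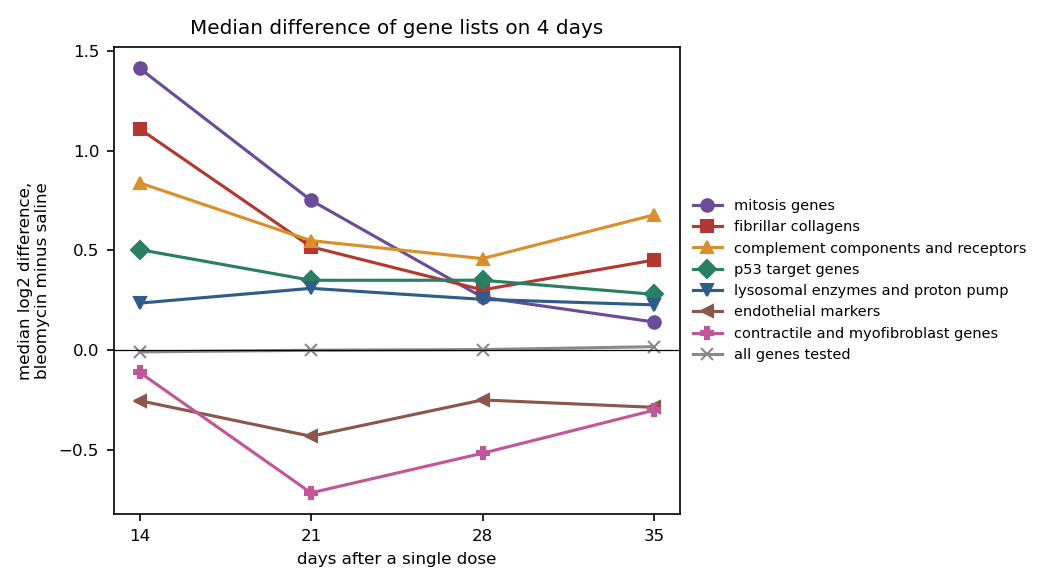
Median log2 difference, bleomycin minus saline, of 7 gene lists and of all genes at 14, 21, 28 and 35 days after a single dose. Each day has bleomycin and saline mice of its own. Mitosis genes stood at 0.27 at day 28 and 1.41 at day 14, while the p53 and lysosomal lists stayed between 0.23 and 0.50.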

How the data were processed

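Whole-lung RNA of single mice was hybridised to Affymetrix mouse genome arrays. The authors computed the deposited log2 values with RMA, which subtracts background, sets all arrays to 1 common distribution and summarises the probes of a probeset, and these values were used as deposited. RMA compresses differences of dim genes, and the table gives no detection calls. The genome build behind the probe annotation is not given in the sources used here.

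Of 32688 probesets in the table, 27871 had 1 gene in the platform annotation, 314 had several and were left out, and 4503 are unnamed here. Symbols were updated through the gene ID for 15608 of 15707 genes, and a gene was represented by its probeset of highest variance over all arrays. The choice used no group labels, but the response to bleomycin adds to that variance, so it can favour the probeset that responded most. One mean for each of the 14 groups of day and treatment was fitted with limma 3.58.1 in R 4.3.3, tested with moderated t statistics and adjusted by Benjamini-Hochberg over all genes, and responses on different days were compared by the difference of differences in the same model. The model was tested on simulated data. With arrays, the number of mice per group limits the precision.

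The gene lists and the genes followed were chosen with earlier results of these data known. Named are the 15 largest increases and the 12 largest decreases among genes called and over 2-fold for which no bleomycin mouse crossed the mean of the saline mice, up to 4 called members of a list in each direction by size and up to 2 members not called by level, and the 4 largest differences between days in each direction. Acta2, Atp6v1a, Ctsa, D6Ertd527e, Npy and Pde1c were named after their values were seen. Some genes that meet the rule are not reported here. Alternatives covered the choice of probeset, a filter on dim genes, renormalization, the arrays and controls in the fit, array weights, other forms of the test, the replicate number as a block, each mouse of day 28 left out in turn and a cardiac covariate. Promoters were taken from RefSeq, build GRCm38.p6, and searched on both strands for the letters TGANTCA and TCACGTGA and for the p53 half-site by its consensus. A gene counted as holding a motif if any of its promoters did. Cdkn1a, Mmp12 and Ctsa have 2 promoters each, and the window shown is the first that holds the match.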

Additional observations from a re-analysis of the deposited data

Results flagged for a closer look

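In 14 of 278 sets of 8 values among the genes described above, 1 mouse stood apart, with a gap to the next mouse that took up more than 0.526 of the range of its group. Chance gives about 1 such case in 20 groups, or 13.9 of 278, so the number is near what chance gives. Bleomycin mouse 8 was the highest of its group for Timp1 (level 12.58, next 10.98, gap over range 0.585), Ccl3 (10.07, next 8.82, 0.600) and Sprr1a (10.67, next 9.24, 0.619), and the lowest for Col17a1 (5.69, next 6.42, 0.542). Bleomycin mouse 2 was the lowest for the endothelial genes Car4 (11.69, next 12.21, 0.612) and Eng (10.35, next 10.98, 0.578).

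Among saline mice, mouse 4 was the lowest for Ankrd63 (9.72, next 10.67, 0.573), Car4 (12.59, next 12.72, 0.566) and Cdkn2a (5.62, next 5.85, 0.545). Saline mouse 6 was the highest for Ccng1 (9.05, next 8.95, 0.568), Npy (6.60, next 5.92, 0.685) and Xbp1 (12.07, next 11.92, 0.628). Saline mouse 5 was the highest for Ccl3 (7.90, next 7.58, 0.575), and saline mouse 3 the lowest for Scgb1a1 (14.53, next 14.59, 0.675).

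For 24 of the genes named, the response to bleomycin at day 28 differed from that on another day by the limma test of the difference itself, all but 1 of them from day 14. Over all genes, 1078 of 15707 (6.86%) differed from day 14. Has2, Chodl, Timp1, S100a9, Igfbp3 and Cxcl3 met the naming rule for differences between days, so their place among the 24 was fixed in advance. The number 24 is therefore no measure of how common such differences are. Each value below is the response at day 28 minus that at day 14, with both responses after it, day 28 first. Matrix genes had smaller responses at day 28, with Has2 at -1.98 (0.62 and 2.60), Timp1 at -1.84 (0.75 and 2.59), Thbs4 at -1.77 (1.70 and 3.47), Eln at -1.44 (0.86 and 2.30), Cilp at -1.32 (0.81 and 2.13), Col24a1 at -1.14 (1.64 and 2.78), Fn1 at -1.12 (0.82 and 1.95), P4ha3 at -1.10 (0.75 and 1.85), Col1a1 at -0.77 (0.18 and 0.95) and Col1a2 at -0.73 (0.37 and 1.11). The same held for Sfrp1 at -1.27 (1.07 and 2.34) and Chodl at -1.98 (1.88 and 3.85). C1q genes, which macrophages make, were at -0.87 for C1qa (0.87 and 1.74), -0.93 for C1qb (1.02 and 1.95) and -0.84 for C1qc (0.81 and 1.65), and Foxp3 was at -0.50 (0.26 and 0.76).

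Other genes moved to the saline level or away from it. Mmp23 was at -0.61 (-0.06 and 0.55), Mmp17 at -0.47 (-0.28 and 0.19), Stab1 at -0.34 (-0.28 and 0.05) and Bex1 at -0.76 (-0.80 and -0.04). The response was higher at day 28 for the neutrophil granule gene S100a9, at 1.40 (-0.09 and -1.49), for Igfbp3, at 1.25 (-1.18 and -2.43), and for Upk3a, at 0.70 (0.93 and 0.23). Cxcl3, a neutrophil-attracting chemokine gene, differed from day 21 by -2.20, with responses of -0.82 at day 28, where it was not called, and 1.38 at day 21. It was the 1 gene over 2-fold lower in that comparison, and that number was 0 without any 1 of bleomycin mice 1, 2, 3, 4 or 6 or saline mice 1, 2, 6, 7 or 8.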

How the results depend on the processing

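With each mouse of day 28 left out in turn, 1360 (without bleomycin mouse 8) to 1866 genes were higher and 1351 (without bleomycin mouse 8) to 1882 lower, with 65 to 113 and 20 to 26 over 2-fold. The mean of all saline groups as control gave 3301 higher and 2853 lower genes, against 1799 and 1847 with the saline mice of day 28, and the sign of Cxcl3 turned, at 1.23 (adjusted p = 0.000107). Leaving out the dimmest 30% of genes, so that fewer were tested, gave 59 genes over 2-fold higher in place of 90. The other alternatives gave 1633 to 2349 higher and 1570 to 2433 lower genes. The cause of these differences was not tested.

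The difference from day 14 had 1078 genes, and 788 (without bleomycin mouse 7) to 1458 (without bleomycin mouse 8) with single mice left out. Array quality weights gave 2273, with 15 over 2-fold higher in place of 7, and without dim genes 76 in place of 116 were over 2-fold lower. Against day 21 the 13 genes became 3 to 43 with single mice left out, with 0 to 1 over 2-fold higher and 0 to 2 lower. They became 25 with the most intense probeset, 21 with the mean of probesets, 36 with every probeset, 20 without dim genes, 4 with quantile normalization, 4 with array medians subtracted and 339 (7 over 2-fold lower) with array weights. With only the arrays of both days limma called 0, where 1781 had an unadjusted p under 0.05. The gene over 2-fold lower, Cxcl3, was lost (0 left) without dim genes, under both renormalizations and with only those arrays. Against day 35 the 7 genes became 5 to 11 with single mice left out, 12 with every probeset, 14 with only the arrays of both days and 181 (2 over 2-fold higher, 3 lower) with array weights. Comparisons with days 21 and 35 thus gave no stable number of genes.

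Replicate numbers did not pair the mice, since deviations of same-numbered mice correlated at -0.328 to 0.275, with 2 of 8 pairs over 0.1. With the replicate number as a block 1888 genes were higher and 1917 lower, 89 and 22 of them over 2-fold, and 56 and 18 differed from days 21 and 35. Of the genes named, Txndc5, Xbp1, Lamp1, Ei24, Chil3, Has2, Mmp9, Timp1 and Col1a1 were not called as reported but were called with all saline groups as control. With the least changed probeset in place of the most variable one, differences moved by over 1.5 times for C1qb (0.59), Col1a2 (-0.10), Col4a3 (0.35), Ctsb (0.19), Fgfr4 (-0.30), Il1rn (0.78), Itgb6 (0.50), Msr1 (0.94), Myh11 (-0.64), Sesn1 (-0.20), Sfrp1 (0.58), Slc6a14 (0.33), Smoc2 (-0.27), Susd5 (-0.64), Atp6v1a (0.20), Cx3cl1 (-0.05) and the genes named with such a value above.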
